A study of Caenorhabditis elegans with 8 samples.

Results

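The genes described here make, or are needed to make, the DNA double-strand breaks that start meiotic recombination in Caenorhabditis elegans. They are 10 genes chosen by name: spo-11, dsb-1, dsb-2, dsb-3, chk-2, him-5, him-17, xnd-1, mre-11 and com-1. All 10 were found among the 46244 gene identifiers of the data, and all 10 passed the filter on low counts. The data are gene counts and TPM values (a level corrected for transcript length and scaled to the same total in each library) from polyadenylated RNA of whole worms. The worms carried the strain label col-121, the name of a cuticle collagen gene, and were picked at the late L4 stage, the last larval stage, when the germline is already in meiosis. In 4 samples the worms were exposed to DEET, an insect repellent, dissolved in DMSO, and in 4 to the solvent alone, at 0.1% DMSO. Exposure lasted 24 hours. Each sample held 1000 worms pooled. The labels give 0.1 M for DEET without saying whether this was the stock or the final concentration, and they call the samples of a group independent biological repeats. A batch number from 1 to 4 joins 1 DEET and 1 DMSO sample, so each batch held both treatments.

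In meiotic prophase the topoisomerase-like protein SPO-11 cuts both DNA strands, and the breaks are trimmed, paired with the homologous chromosome and in part turned into crossovers. A set of accessory proteins sets when and where SPO-11 may cut, and in worms the X chromosome needs regulators of its own to receive breaks. Worms that lack these proteins lose crossovers, missegregate chromosomes and give males among their self progeny, the Him phenotype after which several of the genes are named.

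In these worms 8 of the 10 transcripts differed between batches, as did 64.9% of all genes tested. None of the 10 passed the test between DEET and DMSO, where 0% of all genes passed without the batch in the fit. The same 8 were lower in batch 4 than in batches 1 to 3, by 16.1% for dsb-3 to 41.2% for xnd-1, in both treatments. Of all genes tested, 29.8% were lower in batch 4 and 36.4% were higher. The transcript of spo-11, which encodes the enzyme that cuts, was not among them: its level was 57.8 ± 3.25 TPM in batches 1 to 3 (SD, n = 6) and 54.5 and 62.1 TPM in the batch 4 libraries with DEET and DMSO. The other exception was him-5. Summed markers of the germline and of oocytes were lower in batch 4 as well and those of sperm higher, which is set out beside the batch results.

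The libraries held 44437681 to 50295321 counts each. Batch 4 stood apart from the rest before any of these genes is considered: a principal component analysis of log2 CPM put 68.2% of the variance on its first axis, with scores of -67.7 and -61.1 in batch 4 and -2.70 to 45.5 elsewhere. Ribosomal RNA took 10.9% and 12.07% of the counts in batch 4 and 3.91% to 8.32% in the other batches. The DEET test was therefore also run without both batch 4 libraries. Batch tests were run with each of these libraries left out singly, but not both. In RNA from whole worms, fewer cells of a type and less RNA per cell cannot be told apart. As the whole-worm label implies, markers of the germline, intestine, muscle and neurons were all detected. The meiotic germline gene gld-1 stood at 290.0 to 550.2 TPM, while the embryonic gene pes-10 stood at 0.04 to 0.30 TPM.

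The cutting enzyme and its accessory complex come first. spo-11 (sequence name T05E11.4, chromosome IV, 11123133 to 11124862, reverse strand, WBcel235) encodes the break-forming transesterase, with a longest coding sequence of 425 codons. Its level in batches 1 to 4 was 54.1, 54.5, 60.6 and 62.1 TPM with DMSO and 56.02, 60.1, 61.3 and 54.5 TPM with DEET. No batch held the lowest or the highest values of both treatments. Its annotated exons share 23 bases with enpl-1, an endoplasmic reticulum chaperone gene on the other strand at 178.4 to 284.9 TPM, and enpl-1 was lowest in the 2 libraries of batch 4.

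dsb-1 (F08G5.1, chromosome IV, 12408925 to 12410470) and dsb-2 (F26H11.6, chromosome II, 14411095 to 14412218) encode relatives of yeast Rec114, and their proteins mark the nuclei in which breaks may form. dsb-1 stood at 80.1, 77.9, 82.5 and 60.9 TPM with DMSO and at 76.6, 76.0, 84.5 and 66.1 TPM with DEET in batches 1 to 4. dsb-2 stood at 61.1, 59.8, 65.8 and 42.05 TPM with DMSO and at 60.5, 62.7, 64.1 and 47.8 TPM with DEET. For both genes the libraries of batch 4 were the 2 lowest of the 8, and DEET and DMSO overlapped. dsb-3 (C46A5.5, chromosome IV, 7757510 to 7759627) encodes the worm relative of Mei4, which works in a complex with the Rec114 relatives. Its level was 34.0, 34.7, 34.6 and 29.4 TPM with DMSO and 33.9, 37.7, 34.4 and 28.6 TPM with DEET, again lowest in the 2 libraries of batch 4 but by less.

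The kinase chk-2 (Y60A3A.12, chromosome V, 19908086 to 19916023) is the meiotic member of the CHK2 family and is needed for both homologue pairing and break formation. It had the lowest level of the 10, at 11.8, 13.8, 11.97 and 7.52 TPM with DMSO and 12.6, 14.3, 12.8 and 8.45 TPM with DEET. DEET was the higher of the 2 in each batch, and the batch 4 pair was lowest.

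The chromatin and X chromosome regulators were less alike. him-5 (D1086.4, chromosome V, 14090426 to 14092454) encodes a small basic protein that promotes breaks on the X chromosome. It stood at 29.2, 35.8, 34.1 and 28.1 TPM with DMSO and at 29.4, 28.2, 30.2 and 28.5 TPM with DEET, so its spread came from the DMSO libraries of batches 2 and 3, which were the 2 highest. him-17 (T09E8.2, chromosome V, 13176711 to 13180185) encodes a THAP-domain chromatin protein of the germline. It was the steadiest member outside batch 4, at 61.3 to 63.9 TPM in 6 libraries, against 43.3 TPM with DMSO and 47.2 TPM with DEET in batch 4. xnd-1 (C05D2.5, chromosome III, 5604460 to 5607556) encodes a protein that binds autosomes in the germline and is needed for normal breaks on the X chromosome. Its level was 95.9, 96.7, 101.7 and 52.2 TPM with DMSO and 95.9, 95.03, 102.3 and 62.3 TPM with DEET. It was the highest of the 10 in each library of batches 1 to 3, and its 2 batch 4 values lay far below the other 6. No member lies on the X chromosome itself.

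mre-11 and com-1 act where break formation passes into repair. mre-11 (ZC302.1, chromosome V, 10733925 to 10736868) encodes the nuclease of the MRE11 complex, which in worms is needed for breaks to form and for their ends to be resected. It stood at 72.3, 76.1, 77.1 and 54.1 TPM with DMSO and at 74.5, 76.2, 79.3 and 58.0 TPM with DEET. com-1 (C44B9.5, chromosome III, 10896363 to 10901836) encodes the worm relative of CtIP and Sae2, which promotes resection and keeps end joining away from meiotic breaks. It stood at 34.4, 34.9, 35.2 and 22.2 TPM with DMSO and at 34.3, 37.9, 34.0 and 24.4 TPM with DEET. In both genes the batch 4 libraries were again the 2 lowest.

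**Figure D1:**
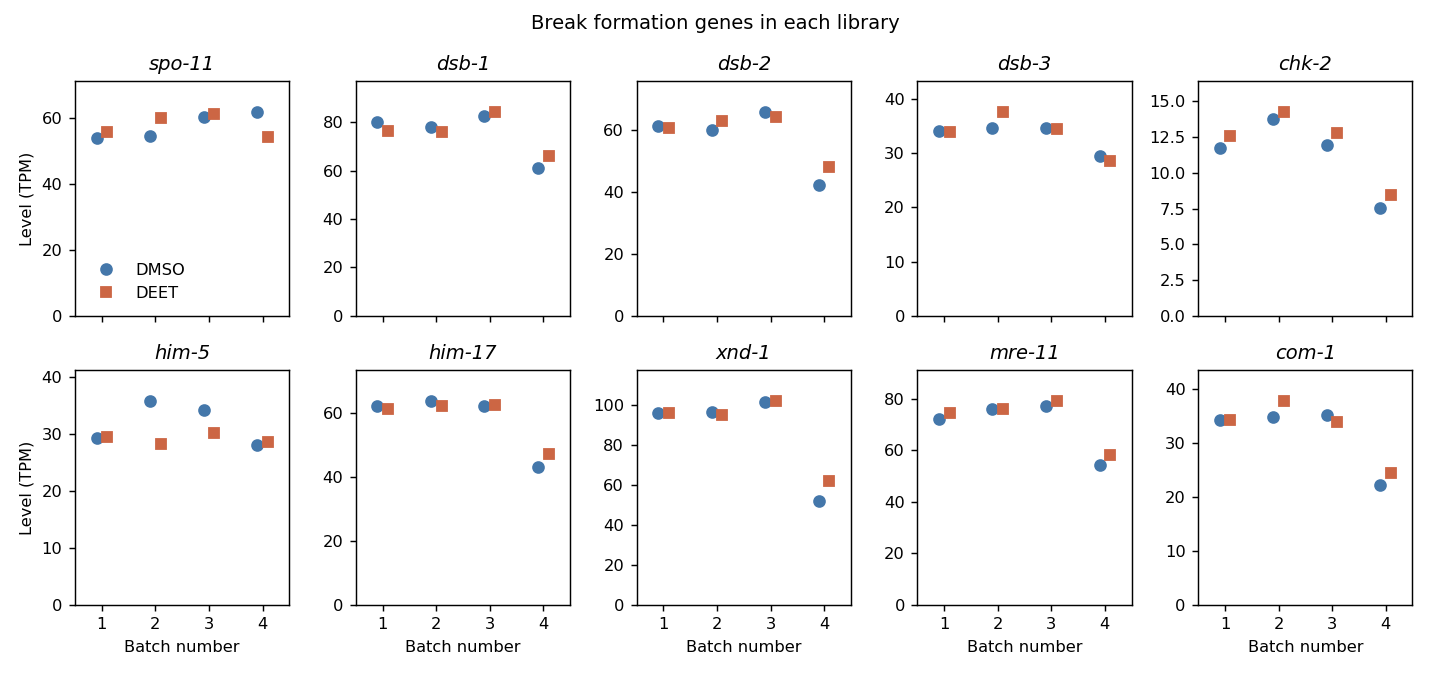
Level in TPM (vertical axes, each starting at 0 and on its own scale) of the 10 genes against batch number, with 1 circle per DMSO library and 1 square per DEET library. The batch 4 symbols are the 2 lowest for every gene except spo-11 and him-5, and the treatments lie close together within batches.

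Ordered by mean TPM in the 4 DMSO libraries, the genes ran xnd-1 (86.6 ± 23.1), dsb-1 (75.4 ± 9.80), mre-11 (69.9 ± 10.7), him-17 (57.9 ± 9.79), spo-11 (57.8 ± 4.103), dsb-2 (57.2 ± 10.4), dsb-3 (33.2 ± 2.51), him-5 (31.8 ± 3.73), com-1 (31.7 ± 6.31) and chk-2 (11.3 ± 2.66; all SD, n = 4). Only 2 steps of this order exceeded the SDs of the neighbours: dsb-2 was 1.72-fold above dsb-3, and com-1 was 2.81-fold above chk-2. Much of that spread was batch 4. Over the 6 libraries of batches 1 to 3 the levels fell into 5 tiers separated beyond the SDs, with no overlap of ranges between tiers. xnd-1 formed the top tier at 97.9 ± 3.19 TPM. dsb-1 and mre-11 came next at 79.6 ± 3.38 and 75.9 ± 2.36 TPM. him-17, dsb-2 and spo-11 lay at 62.5 ± 0.867, 62.3 ± 2.32 and 57.8 ± 3.25 TPM, and dsb-2 was above spo-11 in 6 of 6 libraries. com-1, dsb-3 and him-5 lay at 35.1 ± 1.42, 34.9 ± 1.40 and 31.2 ± 3.06 TPM. chk-2 was alone at the bottom at 12.9 ± 0.995 TPM (SD, n = 6). Among all genes tested, the DMSO means stood between the 50.4th percentile for chk-2 and the 86.8th for xnd-1.

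The comparison between DEET and DMSO asks whether the repellent changed these transcripts. The edgeR quasi-likelihood test without the batch called 0 of the 10 members, and 0% of all genes tested, at a Benjamini-Hochberg adjusted p of 0.05. Over all genes 45 had an unadjusted p under 0.05, none of them a member, and DESeq2 called 10 genes, none of them a member. With the batch as a block, edgeR called 13 genes, 0.0839% of those tested, and again 0 members. The levels of the 2 treatments overlapped for all 10 members, while 0.484% of all genes had DEET and DMSO levels that did not overlap.

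The differences were small as well as uncalled. The fitted log2 fold changes of DEET over DMSO ran from -0.13 for him-5 to 0.10 for chk-2, with a median of 0.03 against 0.00 over all genes tested. Without the block their 95% intervals reached from -0.49 to 0.58. With the block they were narrower and held folds between 0.830 and 1.16 for every member. These limits are for a mean change shared by the batches, and smaller mean changes could not be resolved. Log2 ratios within single batches lay outside them for him-5 in batch 2 (-0.35) and xnd-1 in batch 4 (0.26). The blocked fit gave chk-2 a log2 fold change of 0.10 ± 0.05 (SE; 95% interval -0.01 to 0.22), with an unadjusted p of 0.0712 and an edgeR adjusted p of 0.9999. It gave him-5 -0.12 ± 0.07 (95% interval -0.27 to 0.03), with the same adjusted p.

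Within batches, chk-2 was the only member higher with DEET in 4 of 4 batches, by 0.11, 0.05, 0.09 and 0.17 on the log2 CPM scale (mean 0.10 ± 0.05, SD, n = 4). For him-5 the log2 ratios were 0.02, -0.35, -0.19 and 0.03 in batches 1 to 4, so its negative mean of -0.12 ± 0.18 (SD, n = 4) came from batches 2 and 3. For spo-11 they were 0.07, 0.13, 0.01 and -0.18, higher with DEET in batches 1 to 3 and lower in batch 4. mre-11 gave 0.06, 0.00, 0.03 and 0.11, and its ratio in batch 2 was slightly below 0.

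**Figure D2:**
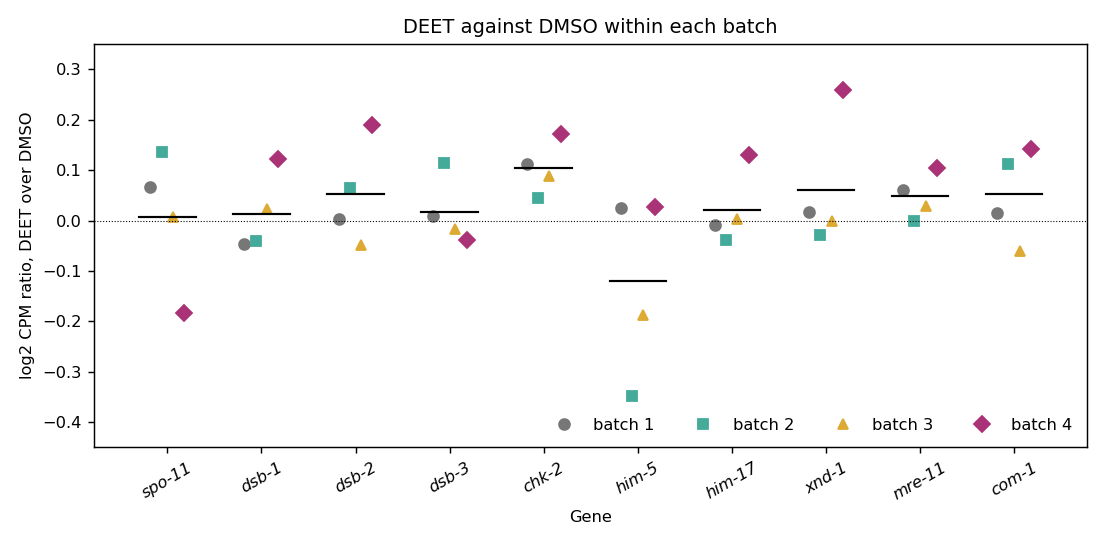
Log2 ratio of CPM, DEET over DMSO, within each batch (vertical axis) for the 10 genes (horizontal axis), with 1 symbol per batch and a bar at the mean of the 4 batches. The dotted line marks no difference, and the batch 4 symbol of xnd-1 (0.26) and the batch 2 symbol of him-5 (-0.35) lie farthest from it.

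The batch 4 ratios stood off from the others in several genes. They were 0.26 for xnd-1, 0.19 for dsb-2, 0.13 for him-17 and 0.12 for dsb-1, all with DEET higher, while in batches 1 to 3 the ratios of these genes lay between -0.05 and 0.06. The DMSO library of batch 4 held xnd-1 at 53.2% of the DMSO mean of batches 1 to 3, and the DEET library held it at 63.7% of its own group's mean. For spo-11 the same shares were 110.1% with DMSO and 92.1% with DEET.

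The difference between the treatment effect in batch 4 and that in batches 1 to 3 was tested as an interaction term, which leaves 2 residual degrees of freedom and was chosen with these values known. The edgeR test called 0 members and 0.00645% of genes, which is 1 gene. For xnd-1 the difference was 0.26 ± 0.05 (SE) with an adjusted p of 0.0559, and for spo-11 it was -0.25 ± 0.07 with an adjusted p of 0.132. The unadjusted p was under 0.05 for 4 of the 10 members, xnd-1, spo-11, him-17 and dsb-1, and for 13.8% of all genes tested. The call for xnd-1 turned on the scaling and the tool. It passed in edgeR with DESeq2 size factors (0.32, adjusted p 0.0137), in edgeR without the filter (0.30, adjusted p 0.00254) and in DESeq2 (0.31, adjusted p 0.0179), and it did not pass in limma on log2(TPM + 1) (0.26, adjusted p 0.333). Those fits called many other genes too: 7.02% of genes with the size factors, 4.76% without the filter, and 18% of the 3053 genes to which DESeq2 gave an adjusted p. limma called 0. Germline and oocyte markers lay on the same side as xnd-1. In batch 4 the germline marker sum was 2152 TPM with DMSO and 2520 TPM with DEET, and the oocyte sum 4688 and 5517 TPM. Intestine and body wall muscle markers lay on the other side, with intestine sums of 11362 TPM with DMSO and 9676 TPM with DEET and muscle sums of 1888 and 1692 TPM. The part of these markers in the xnd-1 difference was not tested.

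For most members the fitted differences between batches were larger than those between treatments. For him-5 they were alike in size, with log2 fold changes of -0.12 in batch 4 and -0.13 with DEET. The edgeR test for any difference between the 4 batches, with treatment in the fit, called 8 of the 10 members, against 64.9% of all genes tested. Adjusted p values of the 8 ran from 2.4e-05 for xnd-1 to 0.0108 for dsb-3. him-5 (0.269) and spo-11 (0.302) did not pass. With the DEET or the DMSO library of batch 4 left out singly, dsb-3 no longer passed. The other batch 4 library stayed in those fits, and no fit of this test left out both.

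Nearly all of this lay in batch 4. Compared with the mean of batches 1 to 3, 8 members fell and 0 rose, where 29.8% of all genes tested were lower and 36.4% higher. The median log2 fold change of the 10 was -0.44, against 0.08 over all genes. In TPM the same 8 members had both batch 4 libraries below the other 6, as did 30.3% of all genes.

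xnd-1 fell most, with a log2 fold change of -0.77 ± 0.06 (SE; 95% interval -0.91 to -0.63) and an edgeR adjusted p of 3.0e-06. The kinase gene chk-2 followed at -0.68 ± 0.06 (-0.81 to -0.54) and the resection gene com-1 at -0.58 ± 0.05 (-0.69 to -0.47). dsb-2 fell by 0.46, him-17 by 0.46 and mre-11 by 0.43, each with an SE of 0.05 or 0.06 and an adjusted p no higher than 3.1e-05. The Rec114 relative dsb-1 and the Mei4 relative dsb-3 fell least, by 0.31 ± 0.05 (adjusted p 0.000146) and 0.25 ± 0.06 (adjusted p 0.00206). The Rec114 relatives thus differed in size, with intervals of -0.42 to -0.21 for dsb-1 and -0.59 to -0.34 for dsb-2 that overlap. That difference was not tested.

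Neither spo-11 nor him-5 passed. For spo-11 the log2 fold change was 0.02 ± 0.06 with an interval of -0.11 to 0.15, which lies wholly above the intervals of the 8 members that fell. It took the other sign under other scalings, among them -0.05 in DESeq2, and was not called under any. For him-5 it was -0.12 ± 0.08 with an interval of -0.29 to 0.05 and an adjusted p of 0.185. him-5 did pass with the DEET library of batch 2 left out, at -0.19 with an adjusted p of 0.0295.

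**Figure D3:**
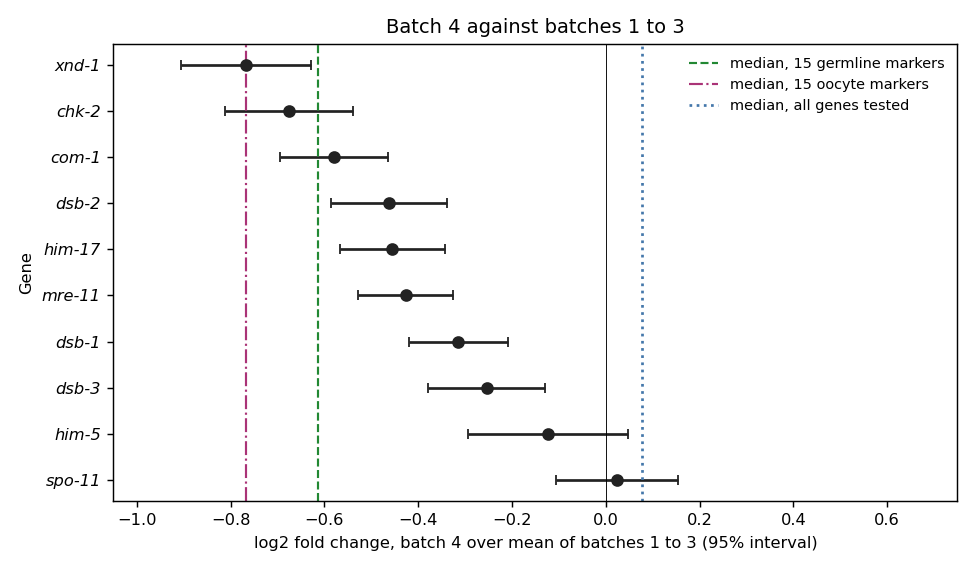
Log2 fold change of batch 4 over the mean of batches 1 to 3 (horizontal axis) for the 10 genes (vertical axis), as points with 95% intervals from edgeR. Vertical lines mark the medians of the germline markers (-0.61), the oocyte markers (-0.77) and all genes tested (0.08), and only spo-11 and him-5 have intervals that reach 0.

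In the contrasts among batches 1 to 3, no member differed by the test. The fit behind them still held the libraries of batch 4. In batch 1 against batches 2 and 3, 0 members were called where 12.9% of all genes were. All 10 fitted values were below 0, from -0.13 for him-5 to -0.03 for him-17, and the lowest adjusted p was 0.246. In batch 2 against batch 3, 0 members were called where 5.56% of all genes were. Values ran from -0.12 for dsb-1 to 0.18 for chk-2, and chk-2 had the lowest adjusted p, 0.205 (unadjusted 0.0320). In DESeq2 and in limma on TPM, too, 0 members were called in either contrast.

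Other genes of meiotic recombination were lower in batch 4 together with the members. For this and the next list counts, the share lower among all genes tested was 29.8%, and their median log2 fold change was 0.08. Up to 3 genes with the smallest p are named for each list, which are not always those that fell most. Of 10 further genes linked to break formation, 10 were lower (median log2 fold change -0.46). By p, the first were rec-1 at -0.70, which encodes a paralog of HIM-5, the checkpoint kinase gene atm-1 at -0.58 and the condensin subunit gene dpy-28 at -0.58. Of 16 genes of break processing and strand exchange, 15 were lower (median -0.40), among them the BLM helicase gene him-6 at -0.71, the nuclease and helicase gene dna-2 at -0.74 and rmh-1, an RMI1 relative, at -0.72. Of 13 crossover genes, 12 were lower (median -0.36), among them the endonuclease gene xpf-1 at -0.58, the BRCA1 relative brc-1 at -0.74, which is also in the processing list, and the RING finger gene zhp-2 at -0.55. Of 12 genes of the response to breaks and of germline apoptosis, 11 were tested and 10 were lower (median -0.40), among them the caspase gene ced-3 at -0.78, the helicase gene wrn-1 at -0.44 and the clamp gene hpr-9 at -0.61.

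Chromosome pairing, axis and synapsis was the list with most exceptions: 17 of 24 genes were lower, 0 were higher and the median was -0.34. The smallest p values were those of the cohesin gene rec-8 at -0.63, the synaptonemal complex gene syp-6 at -0.46 and zyg-12, which links chromosomes to the cytoskeleton through the nuclear envelope, at -0.53. The 7 that did not pass, named after their values were seen, were syp-1 (0.05), syp-2 (-0.05), syp-3 (0.10), him-3 (-0.04), htp-2 (-0.07), lab-1 (0.04) and hal-3 (-0.10). Their classes also held genes that fell, likewise named after the fact: syp-1, syp-2 and syp-3 encode central parts of the synaptonemal complex, but syp-4 (-0.49), syp-5 (-0.41) and syp-6 of the same structure fell. Likewise him-3 and htp-2 encode axis proteins, but the axis genes htp-3 (-0.61) and htp-1 (-0.17) fell. The 7 were picked because they did not pass, so fitted values near 0 follow from that choice. Under DEET 0 genes of the 5 lists were called by edgeR with or without the block, and list medians without it ran from 0.00 to 0.03. The lowest unadjusted p with the block was that of him-8, a pairing protein gene of the X chromosome, at 0.0112, with a log2 fold change of 0.16 ± 0.05 (SE).

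**Figure D4:**
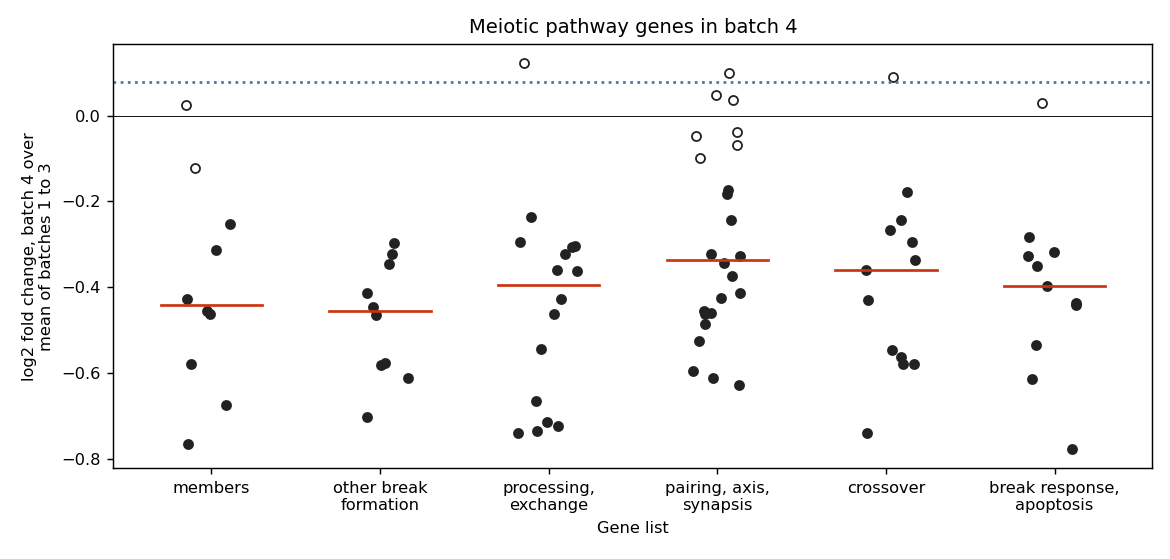
Log2 fold change of batch 4 over the mean of batches 1 to 3 (vertical axis) for the members and 5 lists of meiotic genes (horizontal axis), with 1 point per tested gene, filled where the edgeR adjusted p was under 0.05, and a bar at each list's median. Medians run from -0.46 to -0.34, below the dotted line at the median of all genes (0.08), and the open points nearest 0 include spo-11 and 7 pairing, axis and synapsis genes.

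Markers of the germline and of oocytes were mostly lower in batch 4 in the same libraries. The summed level of the 10 members was 402 and 426 TPM in batch 4 and 535 to 566 TPM in the other 6 libraries, which is 73.1% and 77.4% of the mean of batches 1 to 3. The sum of 15 germline markers was 2152 and 2520 TPM against 3773 to 3911 TPM, or 55.6% and 65.1%, and 12 of the 15 were lower. The sum of 15 oocyte markers was 4688 and 5517 TPM against 8605 to 9088 TPM, or 52.8% and 62.1%, and all 15 were lower. The members' sum therefore fell by less than either: it was 13.9% to 14.6% of the germline marker sum in batches 1 to 3 and 16.9% and 18.7% in batch 4. The germline list holds 4 axis and synapsis genes, and with those left out the shares were 15.1% to 15.9% and 18.9% and 21.1%. The germline sum weighs most its genes of highest TPM, cgh-1 (-0.82 log2), car-1 (-0.85) and gld-1 (-0.77), while fbf-2, him-3 and syp-1 did not pass. The smaller fall was not particular to the members: their median was -0.44, and those of the other meiotic lists were -0.46 to -0.34.

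Markers of sperm, which are also germ cells, and of tissues outside the germline were mostly higher in batch 4. Among all genes tested, 36.4% were higher. Part of this was also seen in batch 1 against batches 2 and 3, where 12.9% of all genes were called. There 10 of 14 sperm, 9 of 9 muscle and 5 of 9 hypodermis and cuticle markers were higher. In that contrast 0 germline markers, 0 oocyte markers and 0 members were called. Sperm markers summed to 351 and 357 TPM in batch 4 against 118 to 248 TPM, with 12 of 14 higher, although their defining marker spe-9 was at only 0.42 to 1.00 TPM. Markers of hypodermis and cuticle summed to 1073 and 1089 TPM against 648 to 894 TPM (8 of 9 higher, 1 lower). Body wall muscle markers summed to 1692 and 1888 TPM against 1129 to 1609 TPM (7 of 9 higher, 1 lower). Neuron markers summed to 347 and 349 TPM against 328 to 341 TPM (5 of 9 higher, 1 lower). The intestine list was mixed, with 6 of 10 higher and 2 lower. Its sum overlapped between batch 4 and the rest, at 9676 and 11362 TPM against 9365 to 11731 TPM. The yolk protein genes vit-2 and vit-5 fell, by 0.26 and 0.55, and the protease genes cpr-1 and asp-1 rose, by 1.80 and 0.80 on the log2 scale; these 4 were named after their values were seen. Early embryo markers summed to at most 2.99 TPM in any library. No marker was listed at 0 in all 8 libraries. The part of these shifts, and of the ribosomal RNA share, in the batch 4 result of the members was not tested, except that with ribosomal RNA left out of the totals the same number of members, 8, was called.

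**Figure D5:**
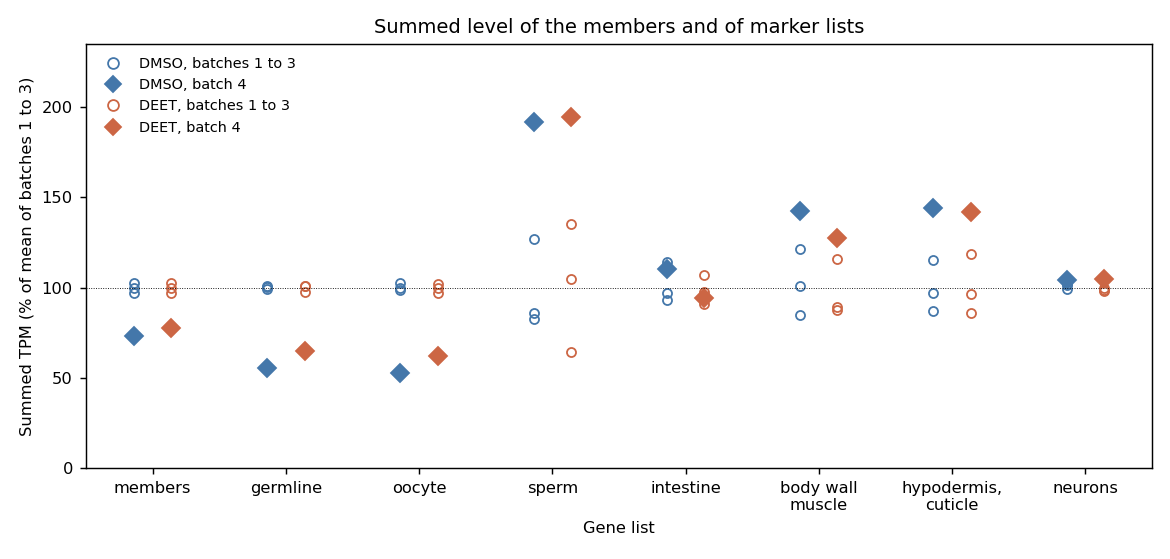
Summed TPM of the 10 members and of 7 marker lists (horizontal axis) in each library, as a percentage of the list's mean over batches 1 to 3 (vertical axis), with circles for batches 1 to 3 and diamonds for batch 4. The batch 4 diamonds lie at 73.1% and 77.4% for the members, between 52.8% and 65.1% for germline and oocyte markers, and at 191.5% and 194.4% for sperm markers.

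The profile of spo-11 over the 8 libraries was among the flatter ones. The SD of its log2 CPM was 0.09, against 0.37 for xnd-1 and 0.33 for chk-2, and against a median of 0.25 and a 5th percentile of 0.07 over all genes tested. Of 15495 other genes compared, those with profiles closest to it, by the root mean square difference of log2 CPM centred on each gene's own mean, were dnj-26 (0.027), T23G11.4 (0.031), F57B10.8 (0.032), C43E11.12 (0.032) and ZK795.3 (0.033). They were chosen for likeness to a flat profile, so their low SDs of 0.06 to 0.11 follow from that choice.

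Overlapping annotation touches some of the values. Besides spo-11, dsb-1 shares 4 exon bases with acl-13 on the same strand (1.67 to 5.83 TPM), dsb-2 shares 17 with exl-1 on the other strand (42.8 to 50.5 TPM), and xnd-1 shares 48 with C05D2.8 on the other strand (40.5 to 50.01 TPM). chk-2 overlaps a non-coding RNA, Y60A3A.29, that was listed at 0 TPM in every library. Both exl-1 and C05D2.8 were highest in the DMSO library of batch 4, where dsb-2 and xnd-1 were lowest. No source used here says whether the counting used strand, so the division of reads in the shared bases is uncertain.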

How the data were processed

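Gene counts and TPM came from 8 libraries. Per the submitters' processing notes, the authors used Salmon and DESeq2 with build WBcel235. No source used here gives versions, settings or strand use. The deposited count table holds whole-number counts, and the deposited TPM table holds length-corrected levels of the same identifiers. Of 46244 identifiers, 45808 matched 1 gene of the Ensembl annotation of that build, 3 matched several and 433 none. Read pairs carry no molecular identifiers.

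Counts were tested in R 4.3.3 with the edgeR 4.0.16 quasi-likelihood test (TMM scaling, default filter leaving 15496 genes, two-sided, Benjamini-Hochberg adjustment, threshold 0.05). The DEET fit held treatment alone. Batch contrasts held batch and treatment. The SE is the fold change divided by the square root of F and restates the p. CPM used a prior count of 2. DESeq2 1.42.0 and limma 3.58.1 on log2(TPM + 1) or log2(TPM + 0.1) were alternatives, as were other scaling, no filter and left-out libraries. The fits that held the batch recovered most seeded changes in simulated data, which were larger than any member difference here. The DEET fit with treatment alone was held to no such mark, and recovery of small changes was not tested.

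The samples were paired by the number that the labels call a batch. Deviations from group means correlated at 0.43, 0.71, 0.56 and 0.90 between libraries of the same number. The highest correlations with a library of another number were -0.01, 0.53, 0.53 and -0.02. By this measure the pairs stood out clearly in batches 1 and 4, less in batch 2 and barely in batch 3. The chi-square per gene between libraries of a group was at least 14.3, so none was counted as a repeat of another. Named were the 10 members, in each pathway list up to 3 genes per direction that passed (otherwise the 2 with the smallest p), and the 5 genes nearest to spo-11. The members, lists and batch contrasts were chosen with earlier results of these data known.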

Additional observations from a re-analysis of the deposited data

Results flagged for a closer look

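In 5 of 20 groups of 4 libraries, each the TPM values of 1 member in 1 treatment, the batch 4 library lay far from the other 3. Chance alone flags about 1 group in 20, and the groups are not independent, since they come from the same 8 libraries. With DMSO these were dsb-3 at 29.4 TPM (others 34.0 to 34.7), him-17 at 43.3 TPM (others 62.2 to 63.9), xnd-1 at 52.2 TPM (others 95.9 to 101.7) and com-1 at 22.2 TPM (others 34.4 to 35.2). With DEET it was him-17 at 47.2 TPM (others 61.3 to 62.7). The gap to the nearest library took 0.870 to 0.935 of the group's range.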

How the results depend on the processing

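The 8 members lower in batch 4 were called in all 15 alternatives, and him-5 made 9 in 1 of them. No member was called under DEET in any of 20. Those leaving out ribosomal RNA or both batch 4 libraries, and limma for the interaction, were chosen after seeing the data. Genes called for DEET (0) became 13 with the replicate block, 20 in DESeq2 with it, 7 in limma on log2(TPM + 1) with it, 10 in DESeq2, 3 with DESeq2 size factors, 3 without a filter and 4 without both batch 4 libraries. Leaving out 1 library gave 0 to 3, the highest without the DEET library of batch 4, and 1 without its DMSO library. With the block, leaving out batches 1 to 4 in turn gave 13, 11, 12 and 16. The block changed no call of a member. Batch 1 against 2 and 3 (1998 genes) gave 1103 in DESeq2 and 626 to 2259 with 1 library left out, lowest without the DEET library of batch 1 (721 without its DMSO library). Batch 2 against 3 (861) gave 528 and 566 in limma with pseudocounts of 1 and 0.1, and 340 to 1288 with 1 library left out: 340 and 365 without the DEET library of batch 2 or 3 and 449 without the DMSO library of batch 3. The interaction (1) gave 551 in DESeq2, 1088 with its size factors, 1139 without a filter and 0 in limma. Uncalled log2 fold changes near 0 took the other sign. For DEET, both batch 4 libraries left out gave -0.0179 for dsb-1, -0.0116 for him-17 and -0.0019 for xnd-1. Leaving out 1 library gave -0.0146 to 0.046 for spo-11, -0.0748 to 0.0768 for dsb-1, -0.0761 to 0.1352 for dsb-2, -0.0282 to 0.1 for dsb-3, -0.0499 to 0.241 for chk-2, -0.0981 to 0.1101 for him-17, -0.1366 to 0.182 for xnd-1, -0.0558 to 0.1418 for mre-11 and -0.0866 to 0.1692 for com-1. With the block, spo-11 gave -0.0011 without batch 1 and -0.0265 without batch 2, dsb-3 -0.0036 without batch 2, and dsb-1, him-17 and xnd-1 -0.0185, -0.0116 and -0.0017 without batch 4. For spo-11 in batch 4 the values were -0.0482 in DESeq2, -0.0282 with its size factors, -0.0087 without a filter, -0.0031 without ribosomal RNA and -0.1056 to 0.1138 with 1 library left out. The cause of these moves was not tested. The least counted member, chk-2, had 591 to 1009 counts per library. Batch 4 is a single batch of 2 libraries, and its contrast rests on them.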
